A study of Mus musculus with 15 samples.

Results

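Neo-liver is liver tissue that grew under the capsule of a mouse kidney after hepatocytes had been placed there, and it was set against the kidney tissue of the hosts. The comparison used the 4 arrays titled neo-liver and the 4 titled host kidney, chosen by title alone, of 15 arrays in all. The remaining arrays were 4 of host liver, whose values are given where they help to place a gene, and 3 of control liver from normal mice aged 20 weeks. All animals were female FVB/N mice. The hosts were wild-type and 7 to 9 weeks old at the start, and every host sample therefore came from a mouse that had been given monocrotaline, a plant alkaloid toxic to the liver, in 2 intraperitoneal doses of 70 mg/kg 2 weeks apart. After a further 2 weeks they received 1000000 hepatocytes of FVB/N mice, aged 8 to 20 weeks, that carry a human α1-antitrypsin (hA1AT) transgene. Neo-liver, host kidney and host liver were all taken 250 to 300 days after the hepatocytes were given, at a host age of 48 to 55 weeks. Neo-liver was cut out of the kidney under the microscope. No kidney of an untreated mouse was measured. The labels do not say whether a sample held tissue of 1 mouse, so p-values measure the spread between samples.

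Liver parenchyma secretes plasma proteins and bile and detoxifies blood, and it is built from hepatocytes around sinusoids lined by open endothelium and Kupffer cells. The kidney filters blood in glomeruli and recovers solutes along the nephron, whose proximal tubule shares gluconeogenesis, amino acid and peroxide metabolism with the hepatocyte. The 2 organs thus use many of the same pathways through different isozymes and carriers. All levels here are log2 signals relative to the 75th percentile of the same array, so that 0 is a bright but ordinary probe, and a difference is neo-liver minus host kidney on that log2 scale with its standard error (SE, n = 4 and 4). A gene was called at a limma adjusted p under 0.05 over all 15619 genes tested.

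The defining markers of each labelled tissue were present, and tubule markers were also measured in neo-liver. All 6 defining hepatocyte markers were called higher in neo-liver, where 23.2% of all genes tested were called higher and 29.5% lower, with mean levels from 8.02 to 8.77 on its arrays against -3.74 to -2.07 in host kidney, and Kupffer cell, sinusoidal endothelium and stellate cell markers were called higher in 3 of 3 cases each. Of 30 tubule markers, 26 were called lower and none higher, but their median signal on neo-liver arrays 1 to 4 was still 19.6%, 48.3%, 18.2% and 31.8% of that in host kidney, against at most 0.278% in host liver. Slc5a2, the glucose carrier of the early proximal tubule, differed by -0.93 ± 0.38 (adjusted p = 0.0576), and was called lower with the title number as a replicate block over the 12 host arrays (adjusted p = 0.00629) and without neo-liver array 2 (-1.28). Slc12a1, the salt carrier of the thick ascending limb, fell by 4.78 ± 0.37. Host kidney array 2 stood above the other kidney arrays in some liver genes: 15 of the 349 genes called at least 32-fold higher in neo-liver lay at least 8-fold above the other 3 kidney arrays on it, against 0, 4 and 2 genes on arrays 1, 3 and 4. Every host kidney array was on 1 slide and every neo-liver array on another, so that slide and tissue cannot be told apart. In bulk tissue, fewer cells of a type and less RNA per cell cannot be told apart either.

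Differences between the tissues were widespread, with 52.7% of genes called in either direction, and the largest were rises. Of the genes tested, 3622 (23.2%) were called higher in neo-liver and 4607 (29.5%) lower. Counts of called list members given below are to be read against these shares, and a list near them was like genes in general. Rises of at least 8-fold were called for 655 genes and falls of that size for 168, and at 32-fold the counts were 349 and 18. The median tubule marker signal on neo-liver arrays was still 18.2% to 48.3% of that in host kidney. Its part in the smaller number of deep falls was not tested. Within the 13972 genes that were above background on all 8 arrays, 22.8% were called higher and 28.7% lower. The 8 arrays did not overlap in 3277 genes with neo-liver higher (21%) and 4442 with host kidney higher (28.4%). The median difference over all genes was -0.0867. Differences of Abcg5, Agxt, Cyp3a16, Fgf21, Foxa2, Klb, Lyve1, Mat1a, Slco1b2 and Uox, given in the paragraphs that follow, rest on a probe well above background on 1 of 4 kidney arrays, and those of Foxa1 and Axin2 on 3 of 4. At the other end, 8301 genes (53.15%) had a 95% interval of the difference within 2-fold either way.

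**Figure D1:**
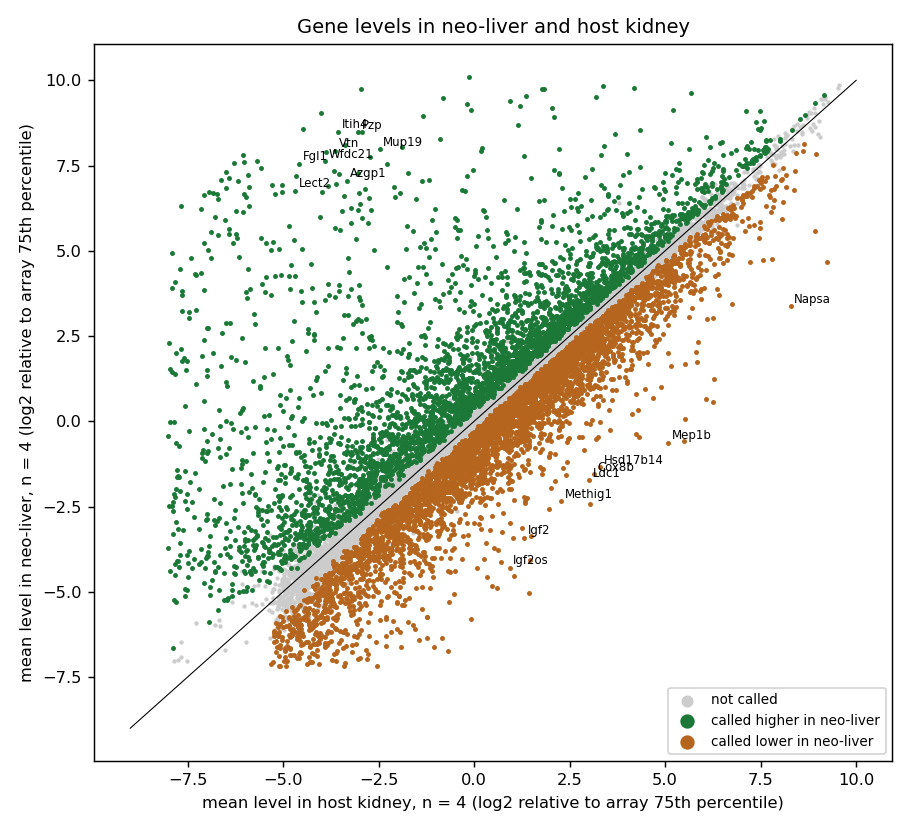
Mean log2 level in host kidney (horizontal) against neo-liver (vertical) for the 15619 genes, 4 arrays each, relative to the array's 75th percentile; green and brown points were called higher and lower in neo-liver, and the line marks equal levels. Rises reach farther from the line than falls, and 8 leading genes in each direction are named.

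The 3 genes described first, secreted proteins known from liver, were among the 12 largest rises of genes measured on all 8 arrays and outside every gene list. Fgl1, a fibrinogen-like hepatokine, read 8.71, 6.49, 7.14 and 7.84 on neo-liver arrays 1 to 4 and -4.87, -4.53, -4.84 and -4.09 on the host kidney arrays, a rise of 12.12 ± 0.47 (adjusted p = 9.78e-11). Itih4, an inter-alpha-trypsin inhibitor chain of plasma, read 9.02, 7.94, 8.36 and 8.65 against -4.01, -2.96, -3.57 and -3.71, a rise of 12.06 ± 0.26. Lect2, a hepatocyte-derived chemotactic protein, read 6.60, 6.91, 6.74 and 6.79 against -4.99, -4.11, -4.58 and -5.06, a rise of 11.45 ± 0.21. The rule named only genes without overlap between the tissues. In these 3 genes host liver means of 8.66, 9.71 and 7.13 were within 1.22 of the neo-liver means.

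The same rule named Vtn (vitronectin), Wfdc21, Pzp (a plasma protease inhibitor), Azgp1, Rdh7, Apcs (serum amyloid P), Gckr and the urinary pheromone carriers Mup19 and Mup2, with rises from 9.92 to 11.56. Azgp1 and Rdh7 had the smallest standard errors, 0.12 each. Mup2 read -2.49, 0.67, -2.47 and -3.24 on the kidney arrays, so kidney array 2 stood above the rest. Mup genes are near-identical copies whose probes may not tell them apart.

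Transcription factors that set up hepatocyte genes were not all called higher, a group chosen after its values were seen. Foxa2, a pioneer factor of endoderm, rose by 8.89 ± 0.20, Foxa1 by 6.67 ± 0.68, and Cebpa by 2.62 ± 0.27. Hnf4a, present in both hepatocyte and proximal tubule, differed by 0.24 ± 0.12 (adjusted p = 0.114), and was called with the title number as a random block (adjusted p = 0.0435).

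The promoters of the genes called at least 32-fold higher were searched for letters that HNF4 or HNF1 proteins are known to bind. The search covered the 250 bases before the transcription start, on both strands, in RefSeq sequence of GRCm38.p6. The letters CAAAGTCCA stood in 9 of the 264 such genes with a sequence (3.41%), against 64 of 12409 genes tested (0.516%) and 122 of 27025 promoters in all (0.451%), and in 1 of 124 genes called at least 8-fold lower (0.806%). The Cyp3a, Cyp2c and Sult2a genes among the matches belong to families of related copies, so the matches are not independent. Stretches around the match are shown for 3 of the HNF4 matches, all cytochrome P450 genes, 5′ to 3′ on the gene's strand. The motif or its complement is in capitals. A match is a description of letters only.
Cyp3a16 (chr5:145469784-145469852, minus strand): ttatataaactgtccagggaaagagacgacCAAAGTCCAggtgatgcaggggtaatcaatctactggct
Cyp8b1 (chr9:121916334-121916402, minus strand): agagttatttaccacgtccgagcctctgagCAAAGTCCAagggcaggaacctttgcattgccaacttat
Cyp2c70 (chr19:40187312-40187380, minus strand): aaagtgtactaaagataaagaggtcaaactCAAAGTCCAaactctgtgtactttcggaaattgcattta

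Among the genes with these letters, Cyp3a16 rose by 13.84 ± 0.51, Cyp8b1, the sterol 12-hydroxylase of bile acid synthesis, by at least 211-fold, since it was not well above background on any kidney array, and Cyp2c70, which makes muricholic acids, by 8.65 ± 0.41. As a family, 54 of the 81 cytochrome P450 genes tested were called higher and 7 lower, and 25 of 28 complement genes higher and none lower. Of 17 sulfotransferases 13 were called higher and 2 lower, and of 15 carboxylesterases 14 higher and none lower. Of the 81 P450 genes 58 were above background on all 8 arrays. With only probes above background on all 8 arrays, 35 of 59 P450 genes, 7 of 11 sulfotransferases and 8 of 9 carboxylesterases were called higher, and with a replicate block over the 8 arrays 11 P450 genes were called lower. The exceptions among the P450 genes include Cyp2j11, which fell by 2.50 ± 0.32.

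The largest falls of genes above background on all 8 arrays and outside the gene lists included 2 proteases. The 331 genes above background on all 4 kidney arrays and on no neo-liver array were outside this choice. Mep1b, the beta subunit of the brush border protease meprin, read 5.06, 5.30, 4.58 and 5.34 in host kidney and -0.82, -0.29, -2.23 and 0.83 in neo-liver, a fall of 5.70 ± 0.46 (adjusted p = 2.85e-07), and it was not well above background in host liver. Napsa, an aspartic protease, read 8.41, 8.27, 8.08 and 8.38 in host kidney and 2.54, 3.62, 2.59 and 4.73 in neo-liver, a fall of 4.92 ± 0.39, with a host liver mean of -1.83. Absence of overlap between the tissues was part of the choice. In both genes neo-liver arrays 2 and 4 were the higher ones. The median tubule marker signal was also higher on those arrays, and its part in the result was not tested. Hsd17b14, a steroid dehydrogenase, fell by 4.65 ± 0.22 and Cox8b, a subunit of cytochrome oxidase, by 4.68 ± 0.50.

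The imprinted growth factor gene Igf2 and its antisense transcript both fell; whether the probes tell the strands apart was not tested. Igf2 read 1.71, 0.61, 1.17 and 1.77 in host kidney and -1.10, -4.48, -4.26 and -3.81 in neo-liver, a fall of 4.73 ± 0.64. Igf2os read 1.25, 0.51, 0.85 and 1.11 against -3.80, -4.38, -4.41 and -4.61, a fall of 5.23 ± 0.29. Neo-liver array 1 was the high one for Igf2 but not clearly apart for Igf2os, which was not well above background in host liver.

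Other leading falls were the transcriptional coregulator Cited1, at -4.52 ± 0.29, the Wnt co-receptor Ror2, at -4.47 ± 0.48, and Ldc1, Methig1, Defb42 (a beta-defensin) and Zpld1, from -4.74 to -4.23. For Cited1 every host kidney array lay between 1.75 and 2.23 and every neo-liver array between -3.15 and -1.95.

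**Figure D2:**
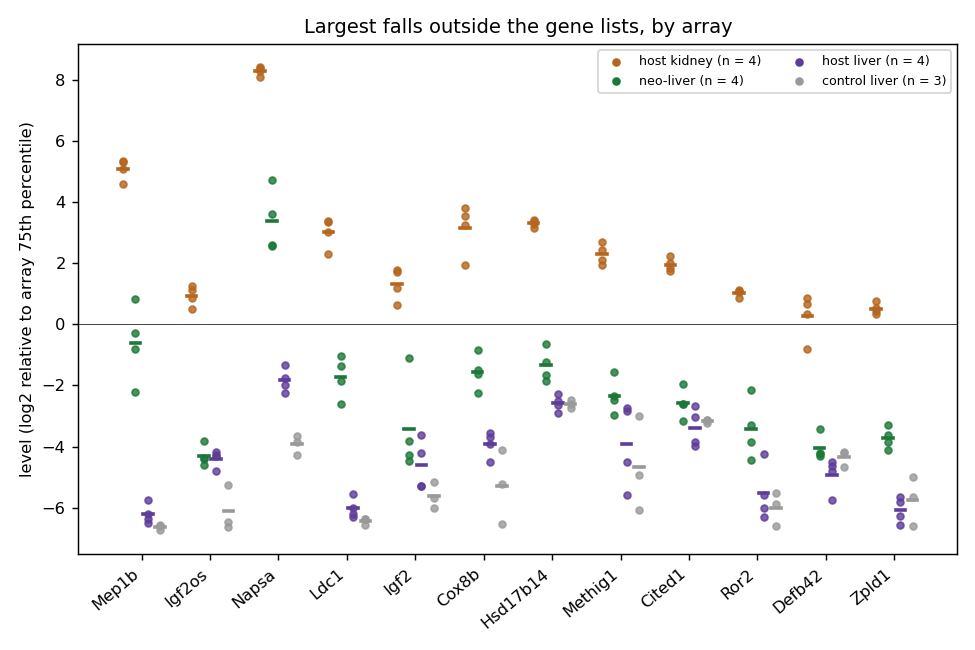
Level of the 12 largest falls outside the gene lists on each array (log2 relative to the array's 75th percentile), with points for samples and short bars for group means. Only genes without overlap between host kidney and neo-liver were chosen, and neo-liver lies well above both livers in Napsa.

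In isozyme pairs the form listed for liver rose and its counterpart fell in many, but not all, of the 17 pairs. Of the listed liver forms 12 were called higher and 2 lower. Of the counterparts 13 were called lower and 2 higher. Hk1, a general hexokinase and one of the counterparts, fell by 2.44 ± 0.60. Arg1, the urea cycle arginase, read 5.61, 5.47, 5.83 and 5.04 in neo-liver and was not well above background on any kidney array, a rise of at least 2381-fold (adjusted p = 6.88e-14), whereas Arg2, the mitochondrial arginase, read 1.44, 0.96, 1.79 and 1.72 in kidney and -3.59, -4.01, -3.22 and -2.68 in neo-liver, a fall of 4.85 ± 0.46. Neither arginase overlapped between tissues.

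Further pairs that parted were the methionine adenosyltransferases Mat1a (12.45 ± 0.44) and Mat2a (-1.43 ± 0.29), the glycogen synthases Gys2 (4.97 ± 0.43) and Gys1 (-1.43 ± 0.15), and the pyruvate kinases Pklr (1.79 ± 0.32) and Pkm (-1.40 ± 0.24). Gls2, a liver glutaminase, rose by 8.35 ± 0.59, and on neo-liver array 4, at 2.08, lay below the other neo-liver arrays, which were between 4.25 and 4.66.

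Several pairs did not part. Both alanine aminotransferases rose, Gpt by 2.35 ± 0.32 and Gpt2 by 1.77 ± 0.22. Both branched-chain aminotransferases fell, Bcat2 by 0.86 ± 0.18 and Bcat1 by 6.47 ± 0.37, the deepest fall in either list. Bcat2, listed as the liver form, was also lower in host liver, at 1.058 to 1.607, than in host kidney, at 1.675 to 2.552. Its fall is therefore not that of a form higher in liver. Bcat1 read between 1.22 and 1.74 in kidney and was above background on 2 of 4 neo-liver arrays. Aldoa, a counterpart form, fell by 1.02 ± 0.17.

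**Figure D3:**
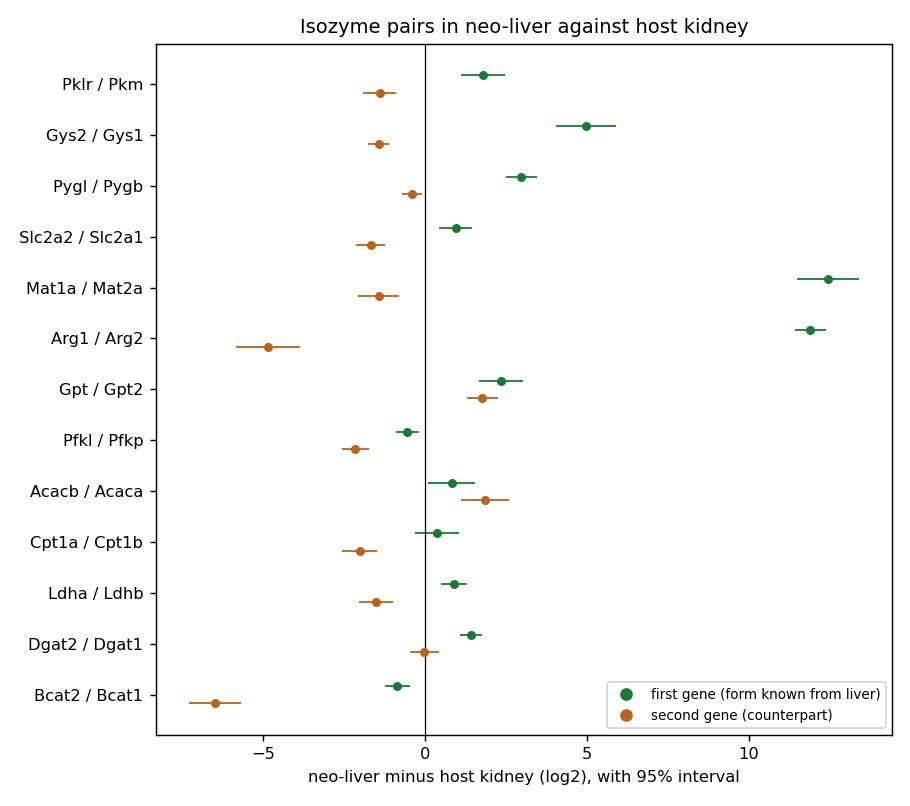
Difference of neo-liver minus host kidney (log2) with its 95% interval for both genes of 13 of the isozyme pairs. The form listed for liver is in green and its counterpart in brown. Most green points lie right of 0 and most brown points left of it, whereas pairs such as Gpt with Gpt2, Bcat2 with Bcat1 and Pfkl with Pfkp lie on the same side.

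Pathways that liver and kidney share held genes of both directions. Creatine is known to be begun in kidney and finished in liver: Gatm, the first enzyme, read from 3.86 to 5.24 in kidney and 3.29, 4.70, 2.18 and 3.46 in neo-liver, which overlapped, and was called lower by 1.15 ± 0.44 (adjusted p = 0.0415), while Gamt, the second, rose by 3.07 ± 0.29 with no overlap. The Gatm call was lost in the fit of the 8 arrays alone, with slide as a random block, and without any one of neo-liver arrays 1, 3 and 4 or host kidney arrays 1, 2 and 4. Bbox1, the last enzyme of carnitine synthesis, rose by 5.92 ± 0.21, and Tmlhe, the first, differed by -0.02 ± 0.19 (adjusted p = 0.943). Of the 30 genes of these pathways 12 were called higher and 7 lower, or 11 lower with a replicate block over the 8 arrays.

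Renin-angiotensin genes were called in both directions. Agt, the precursor made by hepatocytes, rose by 2.54 ± 0.17, Ace, the converting enzyme, fell by 3.88 ± 0.24, and Ren1 differed by -1.10 ± 0.56 (adjusted p = 0.116), or by -1.57 without neo-liver array 2, where it was called (adjusted p = 0.0231). Of the vitamin D genes, Gc, the plasma carrier, rose by 3.93 ± 0.21 and Vdr, the receptor, fell by 1.81 ± 0.49, while Cyp24a1 and Cyp27b1 of the kidney differed by -1.33 ± 0.59 and -0.74 ± 0.52. Neither was called, but both were called lower with the replicate block over the 8 arrays (adjusted p = 0.00756 and 0.0233), and Cyp24a1 also when array 1 of kidney (-1.80) or array 2 of neo-liver (-1.68) was left out. Klb, co-receptor for FGF21, rose by 6.57 ± 0.35, and Kl, its relative that serves FGF23 in the distal tubule, fell by 1.66 ± 0.32.

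The gluconeogenic genes Pck1, G6pc and Fbp1 were not called in the main fit, but their calls depended on the setting. Pck1 differed by -0.22 ± 0.25, G6pc by -0.61 ± 0.53 and Fbp1 by -0.25 ± 0.15. G6pc was called lower with the replicate block over the 8 arrays (adjusted p = 0.0183), and quantile normalization gave called falls for Pck1 (-0.75) and Fbp1 (-0.71). Selenop, which carries selenium out of the liver, rose by 1.62 ± 0.11, and Gpx3, the plasma glutathione peroxidase of proximal tubule, differed by -0.57 ± 0.23 (adjusted p = 0.0554) at a neo-liver level 8.54 above that of host liver. Gpx3 was called lower with the replicate block over the 12 host arrays (adjusted p = 0.032) and without neo-liver array 2 (-0.78). The mean level of the tubule markers was also above host liver on the neo-liver arrays, at 1.65 to 2.99 against -4.35 to -4.05. Its part in the Gpx3 level was not tested.

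Fgf21, a hormone of fasting and stress, varied widely among samples. It read 1.15, -2.43, 4.63 and 4.70 in neo-liver and -7.59, -7.90, -3.97 and -7.93 in kidney, a rise of 8.86 ± 1.78 (adjusted p = 0.000947). Arrays 3 and 4 were high in neo-liver and array 3 in kidney, and the groups did not overlap. Host kidney array 3 was likewise the highest for Creb3l3, a fasting-responsive factor of the endoplasmic reticulum, at 1.41 against -2.88 to -2.23 on the others, and for Pck1, at 8.57 against 7.79 to 7.88.

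Of the SLC22 organic ion carriers 13 of 21 were called lower and 3 higher, or 5 higher without host kidney array 2, led by Slc22a19 (-5.45 ± 0.45) and Slc22a13 (-5.03 ± 0.32); Slc22a12, the urate exchanger, fell by 2.76 ± 0.34. Of the SLCO family, Slco1b2, the hepatocyte bilirubin and bile acid importer, rose by 13.22 ± 0.59 and Slco1a4 by 6.54 ± 0.38, while Slco1a6 read between 5.83 and 6.21 in kidney and -0.06, 1.22, -0.47 and 1.94 in neo-liver, a fall of 5.42 ± 0.52. Among ABC transporters 19 of 45 were called higher and 10 lower, with the bile salt pump Abcb11 at 9.56 ± 0.31 and the sterol exporter Abcg5 at 9.58 ± 0.33, and Abcb1b at -1.76 ± 0.23.

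Of 61 amino acid carriers 16 (26.2%) were called higher and 24 (39.3%) lower, against 23.2% and 29.5% over all genes. Slc7a12, known from the straight proximal tubule, read 5.79, 5.50, 5.03 and 5.67 in kidney and -0.61, -0.56, -1.75 and 0.63 in neo-liver, a fall of 6.07 ± 0.40, the largest among genes above background on all 8 arrays. Slc38a4, a liver carrier of neutral amino acids, rose by 7.00 ± 0.35. Among the 206 other SLC genes 46 were called higher and 91 lower, including Slc4a11 (-5.47 ± 0.42) and the mitochondrial carrier Slc25a47 (9.23 ± 0.24).

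Of 49 potassium channel genes 24 were called lower and 7 higher, with Kcnk1 at -4.63 ± 0.30 and Kcnj1 (ROMK) at -2.33 ± 0.21, and Kcnn2 at 2.68 ± 0.19. Aquaporins were lower in 6 of 10, among them Aqp4 (-3.68 ± 0.49) and Aqp2 (-2.82 ± 0.32) of the collecting duct, whereas Aqp8 rose by 7.03 ± 0.60 and Aqp9, the glycerol channel of hepatocytes, by at least 51.8-fold. Of 24 V-ATPase genes 16 were called lower, and the subunits known from intercalated cells were among them: Atp6v1b1 fell by 1.91 ± 0.20 and Atp6v0a4 by 1.93 ± 0.22, while Atp6v0a1 rose by 0.57 ± 0.11.

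**Figure D4:**
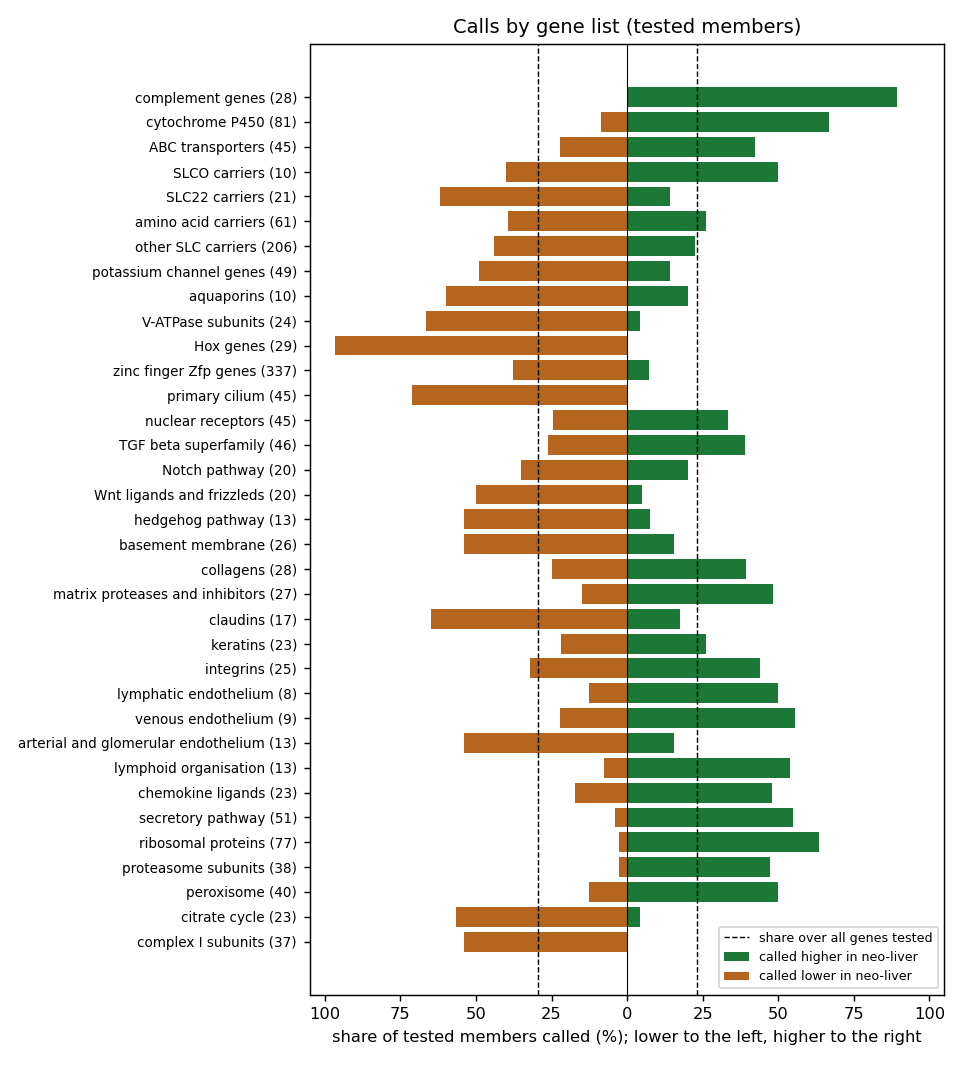
Share of the tested members of each gene list drawn that were called higher (green, right) or lower (brown, left) in neo-liver than in host kidney, with the number tested in parentheses; dashed lines mark the shares over all genes, 23.2% and 29.5%. Among the lists drawn, Hox genes, cilium genes and V-ATPase subunits reach farthest to the left and complement genes farthest to the right.

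Hox genes, which give trunk tissues their position along the body axis, were called lower with 1 exception. Of 29 tested 28 were called lower and none higher, and in 27 of those 28 the arrays of the 2 tissues did not overlap. Over all genes 29.5% were called lower and 28.4% lay higher in host kidney without overlap. Hoxb8 read 1.09, 1.60, 1.92 and 1.28 in kidney and -1.59, -1.47, -1.38 and -1.57 in neo-liver, a fall of 2.97 ± 0.39, and it was not well above background in host liver. Hoxb9 fell by 2.73 ± 0.24, Hoxd4 by 2.62 ± 0.68 and Hoxb6 by 2.33 ± 0.24. The list's median of -1.87 lay close to that of the tubule markers, -1.92.

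Of the zinc finger genes named Zfp, 127 of 337 were called lower and 25 higher, with a median of -0.291 against -0.0867 over all genes. Zfp711 was not well above background on any neo-liver array and was at least 7.35-fold lower. Genes of the primary cilium, the sensory organelle of tubule cells that hepatocytes lack, were called lower in 32 of 45 and higher in none. Pkd2, the polycystin channel, fell by 2.02 ± 0.24 and Bbs1, of the transport complex, by 1.63 ± 0.17.

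Of 45 nuclear receptors 15 (33.3%) were called higher and 11 (24.4%) lower, against 23.2% and 29.5% over all genes. Nr5a2, which drives bile acid genes, read 2.44, 2.32, 2.56 and 2.07 in neo-liver and -4.43, -4.29, -5.60 and -4.70 in kidney, a rise of 7.10 ± 0.22. Pparg rose by 2.81 ± 0.24 and Nr0b2, the bile acid-induced repressor SHP, by 3.33 ± 0.58, while Esrrb fell by 2.44 ± 0.21. Nr0b2 was low on neo-liver array 1, at -1.63 against 0.44 to 0.84 on the others.

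Secreted signals of the TGF beta superfamily included large rises. Of 46 genes 18 were called higher and 12 lower. Gdf2, the endothelial ligand BMP9, read 1.69, 1.11, 1.62 and 1.75 in neo-liver and was not well above background in kidney, a rise of at least 155-fold, and the activin subunit Inhbc rose by at least 182-fold, Inhba by 5.27 ± 0.52 and Inhbe by 5.22 ± 0.43. The antagonist Fstl3 fell by 2.13 ± 0.29 and the receptor Bmpr1b by 1.99 ± 0.25.

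Of 20 Wnt ligands and frizzleds 10 were called lower, 9 were not called and 1 was called higher, or none higher without host kidney array 3, with Wnt7b at -2.16 ± 0.43 and Fzd1 at -1.46 ± 0.22, and the secretion factor Wls fell by 1.94 ± 0.15. Rspo3, the R-spondin of the central vein, read 0.86, 0.52, 0.82 and 0.82 in neo-liver and -4.65, -3.17, -3.33 and -2.90 in kidney, a rise of 4.27 ± 0.30, and the target gene Axin2 rose by 2.96 ± 0.34. Over the 24 Wnt pathway genes and targets 7 were called higher and 11 lower, or 7 lower without neo-liver array 3. Without both arrays numbered 4, 6 ligands and frizzleds were called lower.

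Smaller signalling groups are set beside the shares over all genes, 29.5% called lower and 23.2% higher. Of 20 Notch pathway genes 7 were called lower and 4 higher, or 2 higher when array 3 of neo-liver or array 1 or 3 of kidney was left out. Both Jagged ligands were lower, Jag1 by 1.29 ± 0.20 and Jag2 by 1.74 ± 0.21. Of 15 FGF genes and receptors 5 were called lower and 1 higher, or 2 higher when array 2 of neo-liver or array 4 of kidney was left out, and Fgf9 (-2.42 ± 0.27) and Fgfr1 (-1.25 ± 0.16) were among those lower. Among IGF-binding and angiopoietin-like genes 5 of 13 were called higher, or 8 with a replicate block over the 8 arrays, and 2 lower, or 1 when array 3 or 4 of neo-liver or array 2 of kidney was left out. They included Igfbp2 (7.65 ± 0.54), Angptl8 (3.59 ± 0.49), a hormone of lipid metabolism, and Igfbp7, which fell by 1.35 ± 0.17.

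Of 26 basement membrane genes 14 were called lower and 4 higher. The collagen IV chains of the glomerular membrane fell, Col4a3 by 2.19 ± 0.45 and Col4a4 by 2.09 ± 0.22, as did Npnt, an integrin ligand of tubules, by 2.27 ± 0.29. In contrast Col18a1, the collagen that yields endostatin, read 6.45, 5.96, 6.14 and 6.29 in neo-liver and between 3.61 and 3.74 in kidney, a rise of 2.51 ± 0.13. Of 28 collagens in all, 11 were called higher and 7 lower.

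Col1a1 and Col3a1, chains of fibrillar collagen, rose. Col1a1 read 1.91, 1.58, 1.34 and 2.46 against -0.96, 0.17, -0.48 and 0.04, a rise of 2.13 ± 0.41, and Col3a1 rose by 2.36 ± 0.39; both were also above host liver, by 2.36 (adjusted p = 0.00048) and 1.32 (adjusted p = 0.014). Dcn (decorin) rose by 2.83 ± 0.22. Of 21 fibroblast and capsule genes 6 were called higher and 4 lower, with Sfrp1 at -1.39 ± 0.35. Of 27 matrix proteases and inhibitors 13 were called higher and 4 lower, or 2 lower when array 2 of neo-liver or array 4 of kidney was left out, from Mmp19, at least 37.4-fold higher, and Adamts13, the von Willebrand factor protease, at least 29.4-fold higher, to Timp3, which fell by 1.43 ± 0.14.

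Claudins were called lower in 11 of 17 and higher in 3: Cldn16, at -3.06 ± 0.28, and Cldn19, at -3.92 ± 0.31, which form a cation route between thick ascending limb cells, fell, while Cldn3 rose by 2.84 ± 0.13 and Cldn14 by 2.78 ± 0.19. Cdh2 (N-cadherin), of hepatocytes, rose by 4.16 ± 0.16, and Cdh6 of the proximal tubule fell by 2.49 ± 0.19. Krt18, a hepatocyte keratin, rose by 4.27 ± 0.19 and Krt7, of ducts, fell by 2.11 ± 0.29. Of 23 keratins 6 (26.1%) were called higher and 5 (21.7%) lower, near the shares over all genes, 23.2% and 29.5%. Of 25 integrins 11 were called higher and 8 lower, with the leukocyte chains Itgal (2.14 ± 0.27) and Itgax (2.02 ± 0.34) higher and the epithelial Itgb6 (-2.40 ± 0.30) and Itgb8 (-2.50 ± 0.33) lower.

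Venous endothelial markers were called higher in 5 of 9 and lower in 2, and lymphatic markers higher in 4 of 8 and lower in 1. With only probes above background on all 8 arrays, 2 of 5 lymphatic markers were called higher. Arterial and glomerular markers were called lower in 7 of 13 and higher in 2, or 1 higher when array 1 or 3 of neo-liver or array 2, 3 or 4 of kidney was left out. Lyve1, of lymphatic and sinusoidal endothelium, read 0.23, -0.52, 0.17 and -0.67 in neo-liver and -7.17, -5.97, -5.78 and -4.97 in kidney, a rise of 5.77 ± 0.43. Neo-liver also lay above host liver in Lyve1, by 1.56 (adjusted p = 0.0098). Ackr1, the chemokine sink of venules, rose by 4.31 ± 0.27, Vwf by 2.25 ± 0.26 and Prox1, which hepatocytes also make, by 3.15 ± 0.30. Among arterial genes Gja5 fell by 1.51 ± 0.24 and Sema3g by 1.41 ± 0.34.

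Several immune gene groups had more members called higher than lower. Lymphoid organisation genes were called higher in 7 of 13 and lower in 1, or none lower when array 2 or 4 of neo-liver or array 2 or 3 of kidney was left out, with Ccr7 at 1.95 ± 0.25, Vcam1 at 2.04 ± 0.40 and Cxcr5 at least 3.30-fold higher. Chemokine ligands were called higher in 11 of 23 and lower in 4: Ccl9 rose by 5.86 ± 0.50 and Cxcl9, an interferon-induced ligand, by 4.86 ± 0.55, while the epithelial Ccl28 fell by 3.89 ± 0.35. C-type lectins were called higher in 10 of 22 and lower in 4 and interleukin receptors in 10 and 5 of 28. Fkbp11, a chaperone of secretory cells, rose by 2.72 ± 0.29 and lay 2.60 above host liver. In the plasma cell list it and Sdc1, a syndecan that hepatocytes also make, were among 3 of 11 called higher, or 5 without host kidney array 3, with 3 lower.

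Markers of other tissues that a dissection could carry were called in both directions. Of 9 urothelium genes 4 were called lower and 1 higher, and of 10 nerve genes 6 lower and 1 higher. Of 16 smooth muscle and pericyte genes 4 (25%) were called in each direction, near the shares over all genes, 29.5% lower and 23.2% higher. Adipoq, the fat cell hormone, read -0.68, -0.51, -4.79 and 2.30 in neo-liver and -6.68, 0.77, -1.15 and -2.22 in kidney, so this gene varied widely within both groups, and the part of fat tissue in other results was not tested.

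Secretory pathway genes were called higher in 28 of 51 and lower in 2, with the cargo coat genes Sec24d at 1.80 ± 0.19 and Sec23a at 1.42 ± 0.17. Ribosomal protein genes were called higher in 49 of 77 and lower in 2, at a median of 0.292, and Rpl36a rose by 0.86 ± 0.09. That lean depended on the scaling: quantile normalization called 9 ribosomal genes higher and 12 lower, at a median of 0.00525, and 29 or 30 were called higher without both arrays numbered 3 or 4. Proteasome genes were called higher in 18 of 38 and lower in 1, or 11 and 4 under quantile normalization, led by the immunoproteasome subunits Psmb9 (2.09 ± 0.20), Psmb8 (1.90 ± 0.23) and Psmb10 (1.83 ± 0.13). On the arrays in turn Psmb9 read 2.90, 3.19, 3.30 and 3.30 in neo-liver and 0.61, 0.97, 1.52 and 1.23 in kidney.

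Complex I subunits were called lower in 20 of 37 and higher in none, at a median of -0.383, with Ndufb8 at -0.98 ± 0.12, and citrate cycle genes lower in 13 of 23, among them Idh3a at -0.88 ± 0.15. Quantile normalization called 35 complex I and 21 citrate cycle genes lower, and 13 complex I genes were lower without both arrays numbered 1. The 1 citrate cycle gene called higher was Pcx, pyruvate carboxylase, which rose by 0.70 ± 0.13. Peroxisomal genes were called higher in 20 of 40 and lower in 5: Hao1, the glycolate oxidase, rose by at least 693-fold, Uox, urate oxidase, by 12.70 ± 0.46 and Agxt by 12.41 ± 0.59, whereas the sister enzyme Hao2 fell by 1.89 ± 0.35 and Dao, D-amino acid oxidase, by 1.47 ± 0.41. The Dao call was lost without both arrays numbered 1.

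The remaining families are counted as called higher and lower. Serpins were at 25 and 3 of 39, glutathione transferases at 14 and 2 of 21 and UDP-glucuronosyltransferases at 10 and 3 of 15. Apolipoproteins were at 19 and 3 of 25, with 11 of 16 higher among probes above background on all 8 arrays. Aldehyde and alcohol dehydrogenases were at 10 and 4 of 25, and cadherins, which are adhesion genes, at 3 and 6 of 16. Acyl-CoA synthetases and thioesterases, at 4 and 6 of 28 (14.3% and 21.4%), lay below the shares over all genes, 23.2% and 29.5%. Serpina1f, a serpin that lies among the liver antitrypsin genes, fell by 5.70 ± 0.36, and Akr1c18, a progesterone-metabolising reductase, by 4.01 ± 0.47. Gstm3 rose by 3.88 ± 0.84 and was uneven in neo-liver, at 4.95, 7.52, 8.06 and 5.50, with kidney between 2.59 and 2.68.

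Some genes stood above both the kidney and the host liver. In all 147 genes were called higher than both, with no overlap with kidney, where 17.1% of all genes were called higher than host liver; in 98 of them the neo-liver arrays also lay above every host liver array. The choice used both contrasts, so the values are a description. Mepe, a matrix phosphoglycoprotein of bone, read 2.07, 1.65, 1.58 and 1.66 in neo-liver, between -2.77 and -2.39 in kidney, and lay 4.33 above host liver. Cib3, a calcium-binding protein, read 2.80, 1.79, 2.27 and -0.80, at least 152-fold above kidney and 5.53 above host liver on the log2 scale, where 2 of 4 arrays were well above background. Pclo, the presynaptic protein piccolo, rested on 1 probe at 6.27, 5.83, 5.73 and 5.81 in neo-liver, 6.36 above kidney, whereas its other probes lay 2.30 and 1.64 below kidney, so its direction depends on the probe.

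Proteins of neutrophil granules made up several of the rest. Ngp read 3.67, -0.52, -0.02 and 1.03 in neo-liver and was not well above background in kidney, Mpo (myeloperoxidase) read 4.06, -0.08, -0.18 and 1.87, and Camp (cathelicidin) 5.44, 1.53, 1.95 and 2.83. Ltf (lactoferrin), added after its values were seen, rose by 4.40 ± 0.89. Neo-liver array 1 was highest and array 4 next in Ngp, Mpo and Camp, and absence of overlap with kidney was part of their choice. Slpi, a secreted protease inhibitor, read 4.81, 4.26, 6.54 and 5.75 against 1.79, 0.40, 2.69 and 2.13 in kidney, with arrays 3 and 4 highest, and the adaptor Shc2 rose by 3.02 ± 0.40.

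**Figure D5:**
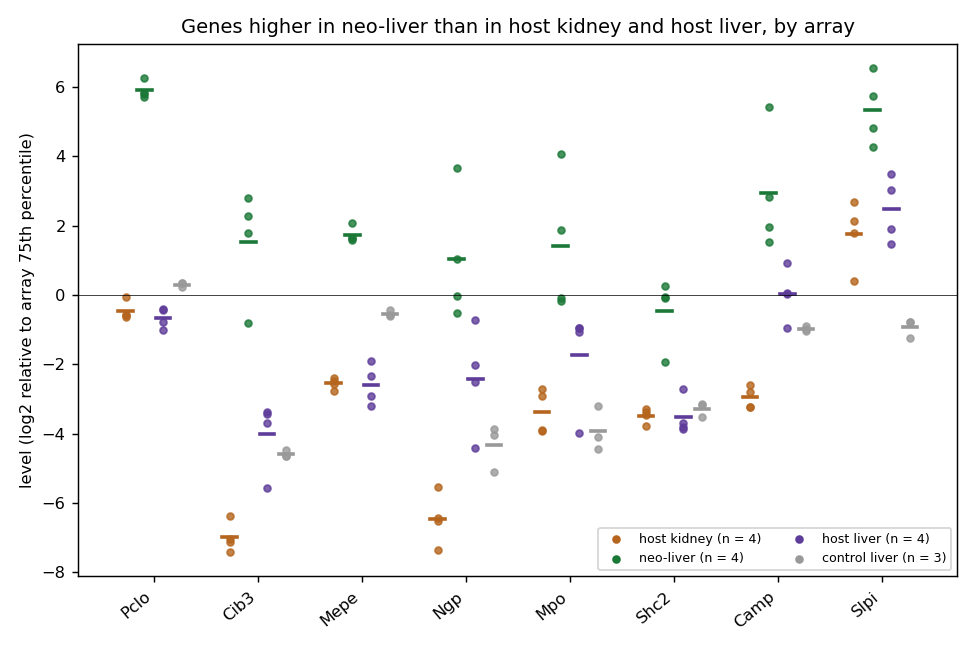
Level on each array (log2 relative to the array's 75th percentile) of 8 genes called higher in neo-liver than in host kidney and host liver, with points for samples and short bars for group means. Neo-liver array 1 is the top point in Ngp, Mpo and Camp, and Pclo and Mepe show the tightest neo-liver points.

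At the other end, the most abundant genes whose 95% interval lay within 0.5 of 0 on the log2 scale included genes common to most cells. Ppia, a peptidyl-prolyl isomerase often used as a reference gene, read 8.76, 8.80, 8.65 and 8.60 in neo-liver and 8.80, 8.63, 8.45 and 8.51 in kidney, a difference of 0.10 ± 0.10 (adjusted p = 0.405). Cox6a1 and Chchd2, both mitochondrial, differed by -0.16 ± 0.11 and -0.16 ± 0.12, and Rn4.5s, Pbld1 and Hccs by 0.18 ± 0.15, 0.16 ± 0.14 and 0.09 ± 0.16. Quantile normalization turned all 6 to called falls, from -0.57 (Cox6a1) and -0.53 (Chchd2) to -0.27 (Pbld1).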

How the data were processed

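RNA of 15 samples was hybridised to one-colour Agilent mouse arrays, 1 array a sample. Per the file headers, the authors' scanner output was made with Agilent Feature Extraction 10.10.1.1 and holds an intensity per spot that is already background-corrected. The authors also deposited a series table of log2 values, which served as an alternative. Here the intensity was taken as log2, minus the array's 75th percentile, and spots of a probe were averaged. Of 55681 probes, 34984 were well above background on every array of at least 1 group, and 20388 of these had a symbol through RefSeq accessions (GRCm38.p6); the brightest probe stood for each of 15619 genes. One limma 3.58.1 model (R 4.3.3) was fitted to all 15 arrays with a mean per group, and p-values were adjusted by the Benjamini-Hochberg method. "At least N-fold" compares a group's mean with the background limit of arrays where the probe was not well above background.

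The members and gene lists were chosen with earlier results of these data known. Named genes were up to 4 of the largest called, non-overlapping members of a list in its main direction and 2 in the other. Isozyme pair and shared pathway genes were also named. The 12 largest rises and falls outside the lists were called, non-overlapping genes above background on all 8 arrays. Further genes were 8 above both host tissues, without overlap with either, and 6 at like level. Predicted genes, RIKEN symbols and immune receptor segments were left out of these choices outside the lists. The defining cell markers were set by name. The transcription factors, Ltf and the promoter examples Cyp8b1 and Cyp2c70 were chosen after their values were seen. Some named genes are not reported here. Samples with the same title number deviated together (correlations of 0.25, 0.443, 0.335 and 0.274 between neo-liver and host kidney). The main model nevertheless did not pair samples, and the title number entered only as a block in alternative fits. Calls that changed with a block are given with the genes. Array number limits the precision. In simulated data of 15580 genes, 52% of genes changed by 1 on the log2 scale and 86% of those changed by 2 were recovered, with 2 false calls. The simulation changed a far smaller share of genes than the 52.7% called here and drew all arrays independently. Its recovery therefore does not measure the power of this comparison. Other normalizations, filters, probe rules, blocks and left-out arrays were tried as alternatives.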

Additional observations from a re-analysis of the deposited data

Results flagged for a closer look

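Among the 193 named genes, each with 4 neo-liver and 4 host kidney arrays, 33 of 386 groups held an array that stood apart from the other 3 by Dixon's criterion; chance alone gives about 1 in 20 groups. Values are log2 levels relative to the array's 75th percentile, with the range of the other 3 arrays of the group after each. Neo-liver array 1 was high for Ackr1 at 0.237 (-0.715 to -0.558), Cdh2 at 4.21 (3.6 to 3.69), Gc at 9.5 (8.97 to 9.03), Kcnn2 at 2.34 (2.04 to 2.07), Mepe at 2.07 (1.58 to 1.66), Pbld1 at 9.22 (8.75 to 8.81) and Rn4.5s at 9.69 (9.16 to 9.2). Neo-liver array 1 was low for Nr0b2 at -1.63 (0.442 to 0.843). Neo-liver array 2 was high for Pklr at 0.297 (-0.446 to -0.337). Neo-liver array 2 was low for Rspo3 at 0.524 (0.822 to 0.864), Shc2 at -1.94 (-0.0763 to 0.26) and Vwf at 0.777 (1.66 to 1.83). Neo-liver array 3 was high for Foxa1 at 1.79 (1.23 to 1.32). Neo-liver array 3 was low for Bcat2 at 0.914 (1.39 to 1.47), Col4a3 at -1.24 (-0.655 to -0.549) and Hoxd4 at -1.33 (-0.762 to -0.735). Neo-liver array 4 was high for Defb42 at -3.44 (-4.3 to -4.22) and Pfkp at 0.157 (-0.676 to -0.591). Neo-liver array 4 was low for Gls2 at 2.08 (4.25 to 4.66). Host kidney array 1 was high for Hccs at 8.81 (8.43 to 8.46). Host kidney array 2 was high for Cyp2j11 at 3.96 (3.74 to 3.78), Pclo at -0.053 (-0.622 to -0.57) and Sfrp1 at 1.86 (1.59 to 1.61). Host kidney array 2 was low for Col18a1 at 3.61 (3.73 to 3.74). Host kidney array 3 was high for Creb3l3 at 1.41 (-2.88 to -2.23), Fgf21 at -3.97 (-7.93 to -7.59) and Pck1 at 8.57 (7.79 to 7.88). Host kidney array 3 was low for Foxa1 at -8.19 (-4.54 to -4.11), Prox1 at -4.86 (-3.69 to -3.5) and Vwf at -1.25 (-0.572 to -0.535). Host kidney array 4 was high for Abcb11 at -4.02 (-4.69 to -4.64). Host kidney array 4 was low for Angptl8 at 0.398 (0.929 to 0.994) and Atp6v1b1 at 0.35 (0.707 to 0.765).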

How the results depend on the processing

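Over 24 alternatives, 174 of the 193 named genes kept their direction and their side of the threshold under all of them, and 19 did not under at least 1. Without a filter on dim probes 5503 genes were called higher (20145 tested), which raised the share of calls that were higher from 44% to 54.1%. No other alternative moved either count of calls by over 1.5 times. Leaving out arrays gave 2991 to 3561 genes higher and 3845 to 4514 lower, and without host kidney array 2 the counts were 3248 and 4085. With the title number as a replicate block the counts were 4084 higher and 5193 lower over the 12 host arrays, and 3845 and 5004 over the 8 arrays alone. Quantile normalization moved the median of all genes from -0.0867 to -0.145 and normexp to -0.0129. Under quantile normalization Hccs became -0.36, Pbld1 -0.27, Ppia -0.29 and Rn4.5s -0.35, and the nuclear receptor median -0.0117. Under normexp the list medians turned to 0.0313 (Notch pathway), 0.122 (keratins) and 0.0752 (plasma cells). With only probes above background on all 8 arrays the medians were -0.0217 (lymphatic endothelium) and 0.153 (plasma cells). With the median of a gene's probes Pclo was -1.40, since its probes disagree. Over the 24 alternatives, the plasma cell median ran from -0.375 to 0.249 and the fibroblast and capsule median from -0.203 to 0.5. The value of 0.249 came without both arrays numbered 3, and that of -0.203 without neo-liver array 4. The cause of the other changes was not tested. Slide and tissue cannot be told apart, and dim probes carry only bounds.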
